A study of Mus musculus with 14 samples.

Results

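Whole-kidney gene expression was compared between 6 female CD-1 mice born preterm and 8 born at term, in a model that removed an average effect of diabetic status and asked for a single preterm effect common to nondiabetic and diabetic animals. All 14 libraries of the series entered this comparison. There were 4 term mice without diabetes (T-ND), 4 term mice with diabetes (T-D), 3 preterm mice without diabetes (PT-ND) and 3 preterm mice with diabetes (PT-D). Every mouse was wild type by its label and 18 weeks old, and hyperglycemia in the T-D and PT-D groups had been induced with streptozotocin, a toxin of the insulin-secreting beta cell.

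Preterm pups were delivered early by Caesarean section and raised by foster mothers that received the sedative acepromazine around the transfer, whereas term pups were born naturally and stayed with their own dams. Early birth therefore cannot be told apart from surgical delivery, fostering or the foster mothers' sedation. All mice had been injected with cationic ferritin, an iron-bearing contrast agent, shortly before the kidneys were taken. CD-1 is an outbred stock. Per the study's methods T-ND mice were littermates of treated ones, but the labels do not give the litter, so libraries of a birth group may share one and genetic background therefore cannot be told apart from birth group either. Some PT-D mice of the study had needed a repeated course of streptozotocin, which no T-D mouse had.

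Nephrons in the mouse continue to form after birth, so that a pup born early completes part of kidney development outside the womb. The adult kidney that was sequenced is mostly proximal tubule, with smaller numbers of podocytes, endothelial cells, distal and collecting duct cells, resident immune cells and, at the pelvis, urothelium. In such bulk RNA, fewer cells of a type and less RNA per cell cannot be told apart.

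Counts on genes ranged from 16697246 to 28673176 per library (18188647 to 26187982 in preterm, 16697246 to 28673176 in term mice). Values below are normalized counts, that is, counts scaled to a common library size. One pair of term libraries, picked after the values were seen, stood apart from the other term libraries. Hmox1, which encodes the heme-degrading enzyme heme oxygenase 1 and is induced by heme, iron and oxidative stress, had 79420 and 72243 normalized counts in T-ND replicates 1 and 2. The other T-ND libraries had 1539 and 2674, and the T-D libraries 3599, 6651, 4704 and 2232. In PT-ND it had 27214, 41303 and 69172, and in PT-D 59759, 70854 and 76462. All 6 preterm libraries were thus high, and of the 8 term libraries only T-ND replicates 1 and 2 were.

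T-ND replicates 1 and 2 also had high levels of other oxidative stress genes, which like this pair were picked after the values were seen. Both libraries carry the suffix a in their names, as does 1 library of each other group, and its meaning is not given. Srxn1, which encodes sulfiredoxin, had 4948 and 12709 normalized counts there against 1166 to 2410 in the remaining 12 libraries. Gsta1, a glutathione S-transferase, had 110 and 122 there against 1.13 to 18.8 elsewhere. Gclc, the catalytic subunit of glutathione synthesis, had 10571 and 18314 in this pair, 3299 to 4925 in the other term libraries and 5256 to 12535 in preterm libraries. Results are therefore given with and without these 2 libraries where it matters. T-D replicate 4 stood apart in other genes: its summed level was 1028489 normalized counts for nuclear-encoded respiratory chain genes (564823 to 735163 in the other term libraries), 881646 for cytosolic ribosomal protein genes (405476 to 546349) and 9257 for endothelial genes (15449 to 17083). Without it, 4 genes were called for the shared effect, all among those called with every library.

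Which genes differed by birth group whatever the diabetic status? A gene was called when its Benjamini-Hochberg adjusted p in edgeR's quasi-likelihood test was under 0.05 and its log2 fold change was above 1 or below -1. Of 22339 genes tested, 6 were called (0.0269%), of which 5 were higher and 1 was lower in preterm mice. The higher genes were Osgin1, Snph, Islr2, H2-Ea and the noncoding BC018473, and the lower gene was Col6a6. Aldh1a1 had an adjusted p of 0.0206 in the same edgeR test with a log2 fold change of 0.94, short of the fold limit. Of the called genes only Col6a6 met the rule for named genes. Aldh1a1, which was not called, met it as the leading member of its list and as a gene the study named. The other called genes are described because they were called, after their values were seen.

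Before adjustment, 1701 genes (7.61%) had an unadjusted p under 0.05 in edgeR, 1099 higher (4.92% of those tested) and 602 lower (2.69%). DESeq2 called 45 genes at the same thresholds (0.201%), 28 higher and 17 lower, including 5 of the 6. Without T-ND replicates 1 and 2, edgeR called 21 genes, 16 higher and 5 lower, including all 6. Hmox1, the gene that marked these libraries, is one of the 21, and its call follows from their removal.

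The reference sequences around the transcription starts of Osgin1 and Aldh1a1, both of which passed the adjusted threshold, are shown because a short motif was found at each. The motif was picked with these sequences in view. They are RefSeq windows of 300 bases on GRCm38.p6, from 250 bases before to 50 after the start, all on the plus strand, whereas the counts were made on GRCm39. Capitals mark TGACTCA, the AP-1 element bound by Fos and Jun family factors, which was searched on both strands. The windows are chr8:119436897-119437196 for Osgin1, chr19:20492333-20492632 for the upstream start of Aldh1a1 and chr19:20601718-20602017 for its downstream start.
Osgin1: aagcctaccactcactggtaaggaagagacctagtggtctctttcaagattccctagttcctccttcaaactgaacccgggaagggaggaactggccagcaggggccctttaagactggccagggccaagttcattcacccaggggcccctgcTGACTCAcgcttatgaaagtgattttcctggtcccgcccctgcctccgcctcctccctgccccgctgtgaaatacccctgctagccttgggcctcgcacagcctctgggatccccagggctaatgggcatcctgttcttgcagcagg
Aldh1a1 upstream start: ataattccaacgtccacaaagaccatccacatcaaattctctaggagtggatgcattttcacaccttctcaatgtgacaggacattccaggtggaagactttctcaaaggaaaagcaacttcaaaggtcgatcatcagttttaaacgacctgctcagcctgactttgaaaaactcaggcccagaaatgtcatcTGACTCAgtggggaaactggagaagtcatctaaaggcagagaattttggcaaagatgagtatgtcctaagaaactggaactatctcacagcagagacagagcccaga
Aldh1a1 downstream start: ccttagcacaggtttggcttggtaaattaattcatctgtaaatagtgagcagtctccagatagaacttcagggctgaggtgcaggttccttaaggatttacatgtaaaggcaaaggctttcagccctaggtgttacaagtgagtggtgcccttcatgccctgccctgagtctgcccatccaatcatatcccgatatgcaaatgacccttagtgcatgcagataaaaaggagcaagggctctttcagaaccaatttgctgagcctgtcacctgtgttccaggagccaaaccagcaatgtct

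The motif began 97 bases before the Osgin1 start and 57 bases before the upstream Aldh1a1 start. It was present on either strand in 1709 of 32851 RefSeq promoter windows (5.2%) and in none of the windows of Snph, Islr2 and Col6a6. These matches describe the sequences only, and no binding was measured.

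Osgin1 (ENSMUSG00000074063, GRCm39 chr8:120152470-120173000) encodes an oxidative stress-induced growth inhibitor. It had 2662, 2343, 1484 and 1821 normalized counts in T-ND and 1037, 1572, 1256 and 1138 in T-D. It had 2888, 5120 and 6668 in PT-ND and 3064, 2426 and 3300 in PT-D. Each preterm group lay wholly above the term group of the same diabetic status. Across all libraries, PT-D replicate 2 fell below T-ND replicate 1.

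The mean of Osgin1 was 3911 ± 1637 (SD, n = 6) in preterm and 1664 ± 580.3 (SD, n = 8) in term mice. Its log2 fold change was 1.23 (SE 0.18), with an edgeR adjusted p of 0.0155. The effect was 1.24 in nondiabetic and 1.23 in diabetic mice, and the edgeR test of the difference between them gave an adjusted p of 1. The T-ND libraries with high Hmox1 also had the highest Osgin1 of the term libraries, and without them the log2 fold change was 1.37 with an edgeR adjusted p of 0.00967. Osgin1 overlaps the predicted gene Gm32006, and since the libraries were not stranded, reads from the shared part cannot be told apart.

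Aldh1a1 (ENSMUSG00000053279, chr19:20469539-20622825) encodes a retinaldehyde dehydrogenase that makes retinoic acid. It had 417, 405, 397 and 442 normalized counts in T-ND and 419, 795, 597 and 524 in T-D. It had 718, 1120 and 807 in PT-ND and 959, 952 and 1127 in PT-D. Every preterm library was above the term libraries of its own stratum, while T-D replicate 2 exceeded PT-ND replicate 1. The mean was 947 ± 164 (SD, n = 6) against 499 ± 138 (SD, n = 8). The additive log2 fold change had an SE of 0.14, and the values were 1.09 within nondiabetic and 0.79 within diabetic mice. The gene overlaps the predicted genes C730002L08Rik and Gm6684. Without T-ND replicates 1 and 2 the additive value was 0.91 and the edgeR adjusted p 0.0574. The edgeR adjusted p of Aldh1a1 was under 0.05 in 9 of the 14 fits with 1 library removed. The largest was 0.0659, without T-ND replicate 4.

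Snph (ENSMUSG00000027457, chr2:151432463-151474681) encodes syntaphilin, which anchors mitochondria to microtubules in axons. It was at 0 in 3 of 4 T-ND libraries and had 2.74 normalized counts in the fourth, and it reached at most 2.26 in T-D. It had 81.3, 45.2 and 27.7 in PT-ND and 52.0, 41.4 and 8.8 in PT-D. No preterm library overlapped a term library, although the raw counts were small, at most 3 in term and 11 to 78 in preterm. The fitted log2 fold change was 5.37 (SE 0.66, edgeR adjusted p 0.00298), and Snph was the only gene called in both strata in the same direction. It was called with each of the 14 libraries left out.

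Islr2 (ENSMUSG00000051243, chr9:58103580-58111602) encodes a leucine-rich repeat membrane protein of developing neurons. It had 5.24 to 13.1 normalized counts in T-ND and 7.72 to 14.6 in T-D. It had 66.8, 17.0 and 28.9 in PT-ND and 48.3, 35.4 and 84.0 in PT-D, again with no overlap. The log2 fold change was 2.26 (SE 0.35, edgeR adjusted p 0.0251), at 2.14 in nondiabetic and 2.37 in diabetic mice. The gene overlaps Islr, and libraries were not stranded. It was called in 6 of the 14 fits with 1 library removed.

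Col6a6 (ENSMUSG00000043719, chr9:105564724-105705561) encodes an alpha chain of type VI collagen, a microfibril of the interstitial matrix. It had 168, 63.9, 118 and 88.1 normalized counts in T-ND and 156, 105, 123 and 122 in T-D. It had 28.2, 45.2 and 30 in PT-ND and 56.5, 22.6 and 51.2 in PT-D. All preterm libraries were below all term libraries, with means of 39.0 ± 13.9 (SD, n = 6) and 118 ± 33.7 (SD, n = 8). The gene fell by 1.60 on the log2 scale (SE 0.26, edgeR adjusted p 0.0391), and its log2 values were -1.66 in nondiabetic mice and -1.55 in diabetic mice (adjusted p 0.122 and 0.0345). Col6a6 was called in only 1 of the 14 fits with 1 library removed, and the largest adjusted p among them was 0.148, without PT-ND replicate 3. It overlaps Pik3r4 and the predicted gene Gm38314.

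H2-Ea (ENSMUSG00000036322, chr17:34560926-34563618) encodes the alpha chain of the class II molecule H2-E, which presents peptides to helper T cells, and it is not transcribed in some inbred strains. It was at 0 in 7 of 8 term libraries and had 26.1 normalized counts in T-ND replicate 1. It had 53.2, 861 and 867 in PT-ND and 30.1, 3.76 and 23.2 in PT-D. Within each stratum the groups did not overlap, while T-ND replicate 1 lay above 2 PT-D libraries. PT-D exceeded T-D, where every library was at 0, by at least 5.76-fold, taking 3 counts per library as the limit that 0 allows. The fitted log2 fold change was 6.62 (SE 0.97, edgeR adjusted p 0.0155). It rested on 1 term library, since it was 11.1 without T-ND replicate 1 and 10.7 without T-ND replicates 1 and 2 (adjusted p 0.0415), where every term library is at 0 and the fitted size depends on the prior count.

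The partner chains and neighbours of H2-Ea were examined beside it. H2-Eb1, the beta chain of the same molecule, had a log2 fold change of -0.37 (edgeR adjusted p 0.868). It had 25 raw counts in T-ND replicate 1 against 856 to 3305 in every other library, and -0.665 without that library. The chains of the other class II molecule, H2-Aa and H2-Ab1, had 0.09 and 0.11 (adjusted p 0.957 and 0.943 by edgeR). H2-Aa, H2-Ab1, H2-Eb1 and H2-Q7 were picked after H2-Ea had been seen. The direction of H2-Aa and H2-Ab1 turned when T-ND replicate 4 or PT-ND replicate 1 was left out, and that of H2-Ab1 also without T-ND replicates 1 and 2. Among class I genes of the same region, H2-D1 had a log2 fold change of 1.03, H2-Q6 of 1.79 and H2-Q7 of 1.94, none with an edgeR adjusted p below 0.533. H2-Q7 was at 0 in T-ND replicate 3 and in T-D replicates 3 and 4, reached 99.9 normalized counts in term mice and had 75.0 to 218 in preterm mice. The H2 genotype of these outbred mice was not tested.

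BC018473 (ENSMUSG00000056032, chr11:116642993-116650199), a long noncoding RNA, was called but did not show a shared effect. It had 294, 1147 and 820 normalized counts in PT-ND and was at 0 in every T-ND and every PT-D library. T-D replicate 2 had 2.44 and the other T-D libraries were at 0. The difference was at least 238-fold in nondiabetic mice by the limit of 3 counts per library. The effect differed between strata (edgeR adjusted p 0.0364), and DESeq2 did not call it (adjusted p 0.133).

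**Figure D1:**
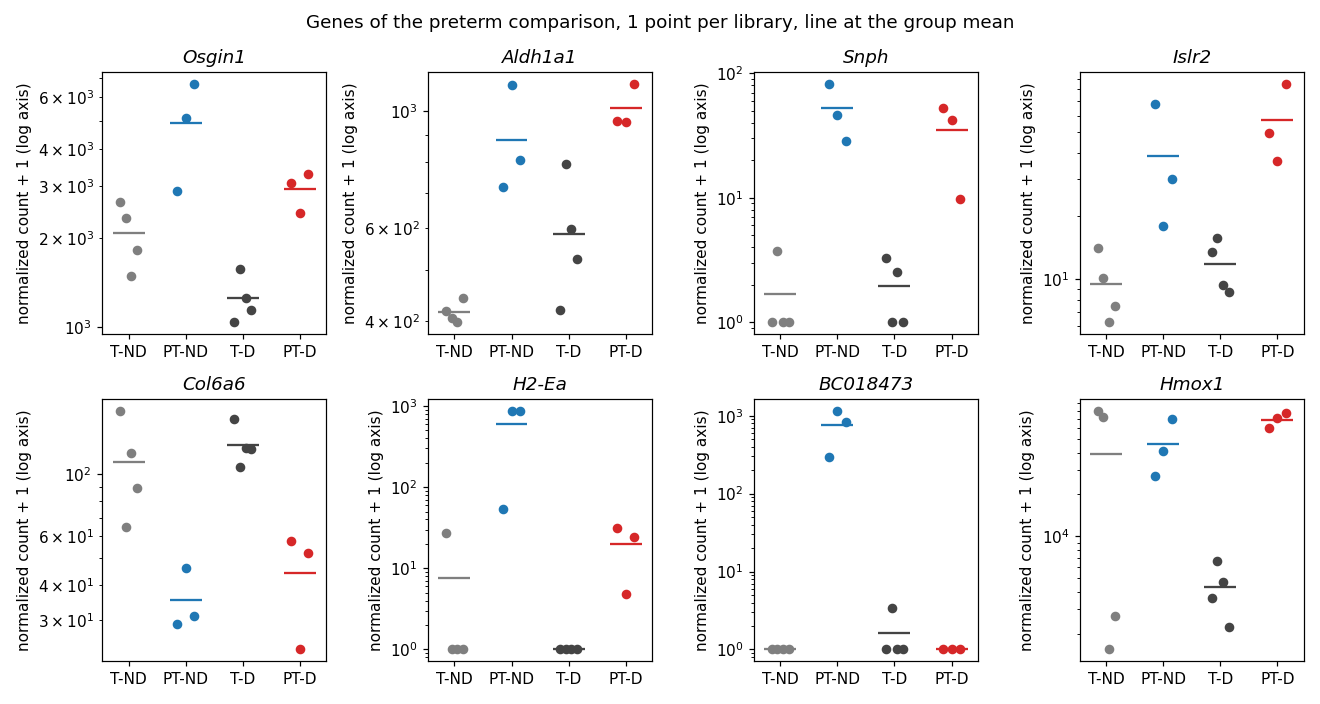
Normalized count plus 1 on a log axis (which differs between panels) for 8 genes, with 1 point per library in the 4 groups and a line at the group mean. Snph, Islr2 and Col6a6 separate all preterm from all term libraries, Osgin1, Aldh1a1 and H2-Ea separate them within each stratum, BC018473 is high in PT-ND alone, and Hmox1 is high in the preterm libraries and in 2 of 4 T-ND libraries.

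Hmox1 itself had a log2 fold change of 2.32 with all libraries (SE 0.91, edgeR adjusted p 0.602). Since T-ND replicates 1 and 2 were singled out by this gene, its value without them, 4.19, is a description and is given no test. With all libraries its effect was 0.24 in nondiabetic mice (adjusted p 0.960) and 4.01 in diabetic mice (adjusted p 0.0346), and the test of the difference gave an adjusted p of 0.088. Some other genes were called by edgeR without this pair but not with all libraries. The pair, or replicate 2 for Gm56730, held the highest term values of the genes below. Their values without it are therefore likewise descriptions and are given no test. Gys2, the liver-type glycogen synthase, had 1.78 in place of 1.35 (edgeR adjusted p 0.278 with all libraries). It had 214 and 217 normalized counts in the pair, against 37.3 to 103 in the other term libraries. The immunoglobulin heavy chain gene Ighg1 had 4.90 in place of 3.22 (adjusted p 0.499 with all libraries). The long noncoding Gm56730 had 1.47 in place of 1.31 (adjusted p 0.115 with all libraries).

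Beyond the called genes, separation of the libraries was counted. In 25 genes (0.112%) all 6 preterm libraries were above all 8 term libraries, and in 10 genes (0.0448%) all were below. Since diabetic status shifts many genes, separation was also asked within each stratum. Preterm libraries were wholly higher in both strata for 55 genes (0.246%) and wholly lower in both for 25 (0.112%).

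Some genes short of the threshold are given next, of which Nr1d1 and Myc led their lists and the others were picked after their values were seen. Ppp2r3a, a regulatory subunit of protein phosphatase 2A, had 510 to 1037 normalized counts in term and 1088 to 1308 in preterm libraries, with a log2 fold change of 0.75 (SE 0.13, edgeR adjusted p 0.0585). Gm56730 had 292 to 1449 in term and 1458 to 2322 in preterm libraries. Nr1d1, a transcriptional repressor of the circadian clock, had a log2 fold change of 0.94 (adjusted p 0.115), with 315 to 779 in term and 606 to 1543 in preterm libraries. Myc, a growth-promoting transcription factor, had 0.77 (adjusted p 0.279), at 0.78 in nondiabetic and 0.76 in diabetic mice.

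Among lower values, Clba1, which encodes a clathrin-binding protein, had 437 to 726 normalized counts in term and 286 to 423 in preterm libraries. Its log2 fold change was -0.69 (edgeR adjusted p 0.155). The long noncoding RNA Eprn had 150 to 435 in term and 27.7 to 144 in preterm libraries (log2 fold change -1.67, adjusted p 0.197). Methig1 had 76.0 to 183 in term and 8.21 to 67.8 in preterm libraries (log2 fold change -1.25, adjusted p 0.426). No library of either birth group overlapped the other for Clba1, Eprn or Methig1.

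Several of these genes were neighbours. Of the 80 genes separated in the same direction in both strata, 16 (20%) lay within 1 Mb of another such gene, whereas 11.4% of all genes tested lay within 1 Mb of one. On chromosome 18, Npc1, which exports cholesterol from lysosomes, was higher in preterm mice (177 to 319 against 72.1 to 162 normalized counts), and so was Impact, a regulator of translation (log2 fold change 0.64). Ankrd29, the neighbour of Npc1, was lower (73.5 to 168 against 175 to 364). None of the 3 was called, with edgeR adjusted p values of 0.179, 0.393 and 0.115. On chromosome 9, Ppp2r3a lay within 1 Mb of Ephb1, an ephrin receptor (log2 fold change 1.16, adjusted p 0.238). Whether linked alleles of this outbred stock differ between the birth groups was not tested.

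Did the preterm effect hold in each stratum? The contrasts PT-ND vs. T-ND and PT-D vs. T-D share no library. The first called 22 genes (0.0985%), 15 higher and 7 lower, and the second 396 (1.77%), 219 higher and 177 lower. There were 4 genes called in both, of which 1 changed in the same direction and 3 in opposite directions. The difference between the strata was called for 993 genes (4.45%), and 977 of these had effects of opposite sign. When PT-D and T-D were fitted without the other groups, 43 genes were called in place of 396. These counts rested on few libraries. Calls within diabetic mice were 123, 32 and 24 without PT-D replicates 1, 2 and 3, 60 without T-D replicate 3 or 4, 260 without T-ND replicate 4 and 239 without PT-ND replicate 2. Calls for the difference were 76 without PT-D replicate 3, 111 without PT-ND replicate 3 and 283 to 629 without T-ND replicates 1, 3 or 4, T-D replicates 3 or 4, PT-ND replicate 2 or PT-D replicate 2. Calls within nondiabetic mice were 46 without T-ND replicate 3 and 4 to 14 without T-ND replicates 1, 2 or 4, T-D replicates 2 or 3, PT-ND replicates 1 or 2 or PT-D replicate 2.

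Opposite effects were the more frequent pattern across the transcriptome. Of 12169 genes averaging 50 or more normalized counts, 4111 (33.8%) had the same sign in both strata. A value higher in PT-ND and lower in PT-D was seen in 3891 genes and the reverse in 4167. Removing single libraries gave a same-sign share of 28% (without PT-ND replicate 1) to 42% (without PT-ND replicate 3), and without T-ND replicates 1 and 2 it was 28.2%. Among all 22339 genes tested, libraries were completely separated in both strata in opposite directions for 306 plus 360 genes, against the 55 plus 25 that moved alike. Pearson's r between the log2 fold changes of the strata was -0.257 across the 12169 genes. They were measured in the same libraries and are not independent replicates.

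**Figure D2:**
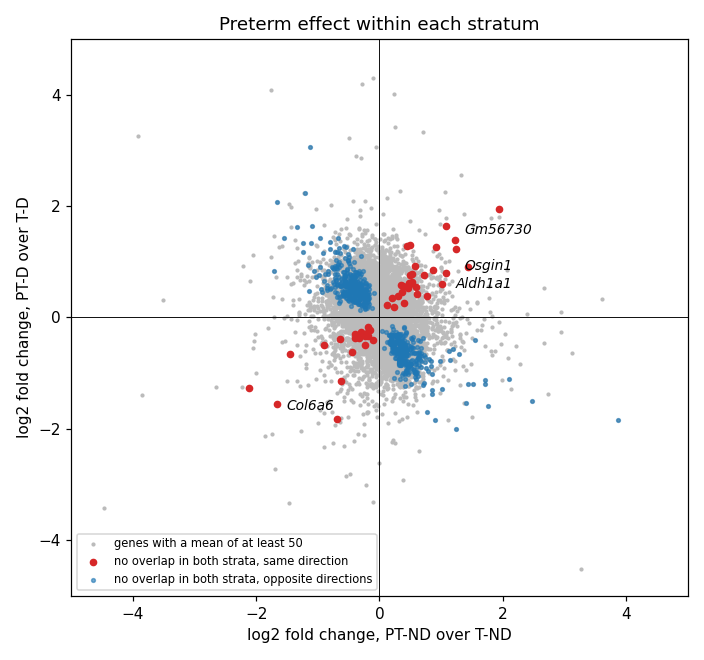
Log2 fold change of PT-D over T-D against that of PT-ND over T-ND for genes averaging 50 or more normalized counts, 12154 of them within the axes. Genes separated in both strata in the same direction (red) include Osgin1, Aldh1a1, Gm56730 and Col6a6, and genes separated in opposite directions (blue) are more numerous and lie in the upper left and lower right quadrants.

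Several genes showed such opposite values, and of those given first all but Socs1 are named in the study's text. Mmp9, a matrix-degrading protease of neutrophils and macrophages, had a log2 fold change of -1.01 in nondiabetic and 2.69 in diabetic mice, and the fractalkine receptor gene Cx3cr1 had -1.65 and 3.11. Flt4, a receptor for lymphatic growth factors, had -0.33 and 1.61. Socs1, an inhibitor of cytokine signalling, had 0.61 and -1.70, and Ndufa13, a subunit of respiratory complex I, had 0.26 and -0.97. The edgeR test of the difference had adjusted p values of 0.0163 to 0.0415 for these genes, and none was called for a shared effect. The study's kidney development genes were mixed, and none was called. Cited1 had -1.32 in nondiabetic and -1.76 in diabetic mice, Shh -0.80 and -0.67, Fgf1 -0.18 and -0.50, and Wnt9b -0.27 and -1.73, whereas Prox1 had -1.12 and 0.14. Their additive edgeR adjusted p values were 0.495 to 0.732.

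The gene lists were read for their counts and medians, beside a median log2 fold change of 0.02 over all genes tested. The 37 lists held 1007 tested genes, of which edgeR called 0 (0.0269% of all genes were called) and DESeq2 called Fn1 and Ighg1. At an unadjusted p under 0.05 in edgeR, 84 of them were higher and 34 lower in preterm mice (4.92% and 2.69% of all genes tested). Aldh1a1, of the renin-angiotensin and juxtaglomerular list, was the only member with an edgeR adjusted p under 0.05. Ren1, which encodes renin, had an additive log2 fold change of 0.04 (edgeR adjusted p 0.968).

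Urothelial genes had the lowest median, -0.89, with all 10 members below 0 in the additive fit and 6 of them at an unadjusted p under 0.05 (2.69% of all genes were lower at that level). Their medians were -0.67 in nondiabetic and -1.41 in diabetic mice. The nondiabetic median was -0.34 without PT-ND replicate 1 and -1.21 without PT-ND replicate 2. The diabetic median was -0.98 without PT-D replicate 1 and -2.07 without PT-D replicate 2. Upk1b and Upk2, which encode plaque proteins of the bladder and pelvic epithelium, had -1.18 and -1.31, and the basal keratin gene Krt14 had -1.18 (adjusted p 0.655, 0.636 and 0.551 by edgeR). The summed level of the 10 genes was 1934 to 3362 normalized counts in preterm and 3085 to 4130 in term libraries, and only PT-ND replicate 2 lay above the lowest term library. Upk1b and Upk2 were picked after their values were seen. How much renal pelvis each sample held was not tested.

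Neutrophil genes had the highest median, 1.04, and all 17 members were above 0, with 6 at an unadjusted p under 0.05 (4.92% of all genes were higher at that level). The median was 0.29 in nondiabetic and 1.79 in diabetic mice. In nondiabetic mice it turned to -0.29 without PT-ND replicate 3, with 6 members above 0, and was 0.54 without T-ND replicate 3. Trem1, an activating receptor of myeloid cells, had 1.22 to 10.96 normalized counts in term and 3.39 to 36.5 in preterm libraries (log2 fold change 1.77, edgeR adjusted p 0.479). S100a8 and S100a9, the calprotectin subunits, picked after their values were seen, had 0.89 and 0.87. The summed level was 470 to 1605 in term libraries and 469 to 1664 in PT-ND, which overlapped, and 1821 to 6104 in PT-D. Without PT-D replicate 1, the library at 6104, the additive median was 0.62 and the diabetic median 1.02.

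Lymphocyte lists also lay above the median of all genes. Of 18 B and plasma cell genes, 13 were above 0 with a median of 0.79, at 0.12 in nondiabetic and 0.93 in diabetic mice. The additive median was 0.31 without PT-ND replicate 1, 1.59 without T-ND replicate 2 and 1.52 without T-ND replicates 1 and 2. In nondiabetic mice the median turned to -0.72 without PT-ND replicate 1, with 2 members above 0, and was 2.27 without T-ND replicate 2. Ighg1 had 0.76 to 160 normalized counts in term and 32.3 to 379 in preterm libraries, and the term libraries above 32.3 were T-ND replicates 1 and 2, the pair with high Hmox1. Of 19 T and NK cell genes, 16 were above 0 with a median of 0.37, at 0.72 and 0.12 in the strata, and the median was 0.11 without PT-ND replicate 1.

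For some lists single libraries set the direction or the size. Of 26 interferon-stimulated genes, 23 were below 0 with a median of -0.23, but without T-ND replicate 3 the median was 0.13 with 19 above 0. The summed level was 106616 normalized counts in that library against 15304 to 32335 in the other T-ND libraries. The median was -0.49 without T-ND replicates 1 and 2, -0.35 to -0.43 without T-D replicate 1, T-D replicate 3 or PT-D replicate 1, and -0.11 without PT-ND replicate 2. Markers of tissue outside the kidney gave no stable direction for 2 of 3 lists. The adipose median of -0.14 was -1.51 when PT-D replicate 2 was removed and 1.16 when T-D replicate 1 was, and the adrenal median of 0.09 from -0.16 without PT-D replicate 2 to 0.21 without PT-ND replicate 3. The blood median of -0.11 ran from -0.43 without PT-ND replicate 1 to -0.08 without PT-D replicate 1. The part of such tissue in the results was not tested.

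Structural and vascular lists had positive medians. Of 49 collagen and matrix genes, 45 were above 0 with a median of 0.40, at 0.16 in nondiabetic and 0.675 in diabetic mice. At an unadjusted p under 0.05 in edgeR, 14 were higher and 1 was lower (4.92% and 2.69% of all genes). Without PT-ND replicate 1 the nondiabetic median was -0.105, with 13 members above 0. It was -0.02 without T-ND replicates 1 and 2. Fn1, which encodes fibronectin, had 369 to 860 normalized counts in term and 636 to 1950 in preterm libraries. Its log2 fold change was 1.03 (SE 0.25, edgeR adjusted p 0.333), at 1.07 in nondiabetic and 1.00 in diabetic mice. In PT-ND it had 1950, 710 and 636, which overlapped the 427 to 653 of T-ND. Without PT-ND replicate 1 the additive value was 0.72. Col6a6, the called collagen gene that fell, was not a member of that list. Of 28 podocyte genes, 24 were above 0 with a median of 0.41, at 0.07 in nondiabetic and 0.66 in diabetic mice, and Nes, an intermediate filament gene, had 0.77 (adjusted p 0.479). Of 27 endothelial genes, 24 were above 0 with a median of 0.34, at -0.04 and 0.67, which without T-D replicate 4 was 0.23 (-0.04 and 0.52). Tie1, an endothelial receptor kinase, had 0.56 in both strata. Its raw counts in nondiabetic mice overlapped, at 831, 478 and 396 in PT-ND and 312 to 514 in T-ND. Without PT-ND replicate 1 its additive value was 0.42.

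Stress and immediate early genes varied between libraries. Of 22 immediate early genes, 21 were above 0 with a median of 0.38, at 0.67 in nondiabetic and 0.01 in diabetic mice. Hspa1b, an inducible chaperone, had 282 to 1188 normalized counts in term and 235 to 3123 in preterm libraries (log2 fold change 1.45, edgeR adjusted p 0.443). Chac1, a target of the unfolded protein response that degrades glutathione, had 1.44 (adjusted p 0.423). Their list, of 25 heat shock and unfolded protein response genes, had 17 above 0 and a median of 0.07. Its medians were -0.30 in nondiabetic mice, with 8 above 0, and 0.27 in diabetic mice, with 21 above 0. Without T-ND replicates 1 and 2 the nondiabetic median was -0.01. Of 24 genes of the NRF2, heme and iron list, 7 were above 0 and 17 below, with a median of -0.11, which was -0.03 to -0.06 without T-ND replicate 1, T-ND replicate 2 or PT-D replicate 1 and 0.08 without T-ND replicates 1 and 2. Nqo1, a classical NRF2 target picked after its value was seen, had -0.25 (adjusted p 0.783), which turned to 0.13 without T-ND replicates 1 and 2.

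Lists of the energy and translation machinery had medians of opposite sign in the strata. Of 78 nuclear-encoded respiratory chain genes, 77 were below 0 in the additive fit with a median of -0.28, but 70 were above 0 in nondiabetic mice (median 0.18) and 1 was in diabetic mice (median -0.80). Of 79 cytosolic ribosomal protein genes, 75 were below 0 in the additive fit (median -0.24), with medians of 0.25 and -0.75 in the strata. Mitochondrial ribosomal protein genes had medians of 0.17 and -0.67. Differences between strata were called for 22, 19 and 20 genes of these lists, against 4.45% of all genes. Without T-D replicate 4 the additive medians were -0.16, -0.10 and -0.11 and the diabetic medians -0.59, -0.50 and -0.46, and without PT-D replicate 3 the additive medians were -0.18, -0.15 and -0.13. Without PT-ND replicate 3 the ribosomal lists had additive medians of -0.38 and -0.34. The nondiabetic medians of the respiratory chain, cytosolic and mitochondrial ribosomal lists were then 0.01, 0.07 and 0.05. In that fit 46 of the 78 respiratory chain genes were above 0 in nondiabetic mice. Removal of PT-ND replicate 1 instead gave nondiabetic medians of 0.325, 0.42 and 0.29.

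Rpl26, a ribosomal protein gene, stood apart from its list in level. It had 3576, 4495, 128 and 3263 normalized counts in T-ND and 3313, 3700, 3698 and 7289 in T-D. It had 107, 227 and 263 in PT-ND and 2810, 100 and 2243 in PT-D. Libraries of either birth group thus fell at a low or a high level, low in 4 of 6 preterm and 1 of 8 term libraries. Its log2 fold change was -2.52 (SE 0.76, edgeR adjusted p 0.479). Reads shared with copies of the gene were not tested.

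Tubular lists had small additive medians. Proximal tubule genes had a median of 0.07, with 26 of 46 above 0, and -0.04 without T-ND replicates 1 and 2. This hides the strata, where 33 were above 0 in nondiabetic mice (median 0.22) and 17 in diabetic mice (median -0.08). Their summed level was 602850 to 849278 normalized counts in PT-D, below every term library (865046 to 1122500), and 1010159 to 1196402 in PT-ND. The organic anion transporter gene Slc17a3 had -0.54 (edgeR adjusted p 0.529). Loop and distal tubule genes had a median of -0.14, with 18 of 28 below 0, that ran from -0.24 without PT-D replicate 1 to -0.06 without PT-D replicate 3, and Umod, which encodes uromodulin, had -0.55 (adjusted p 0.56). Kidney development genes had a median of -0.12, with 24 of 36 below 0.

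**Figure D3:**
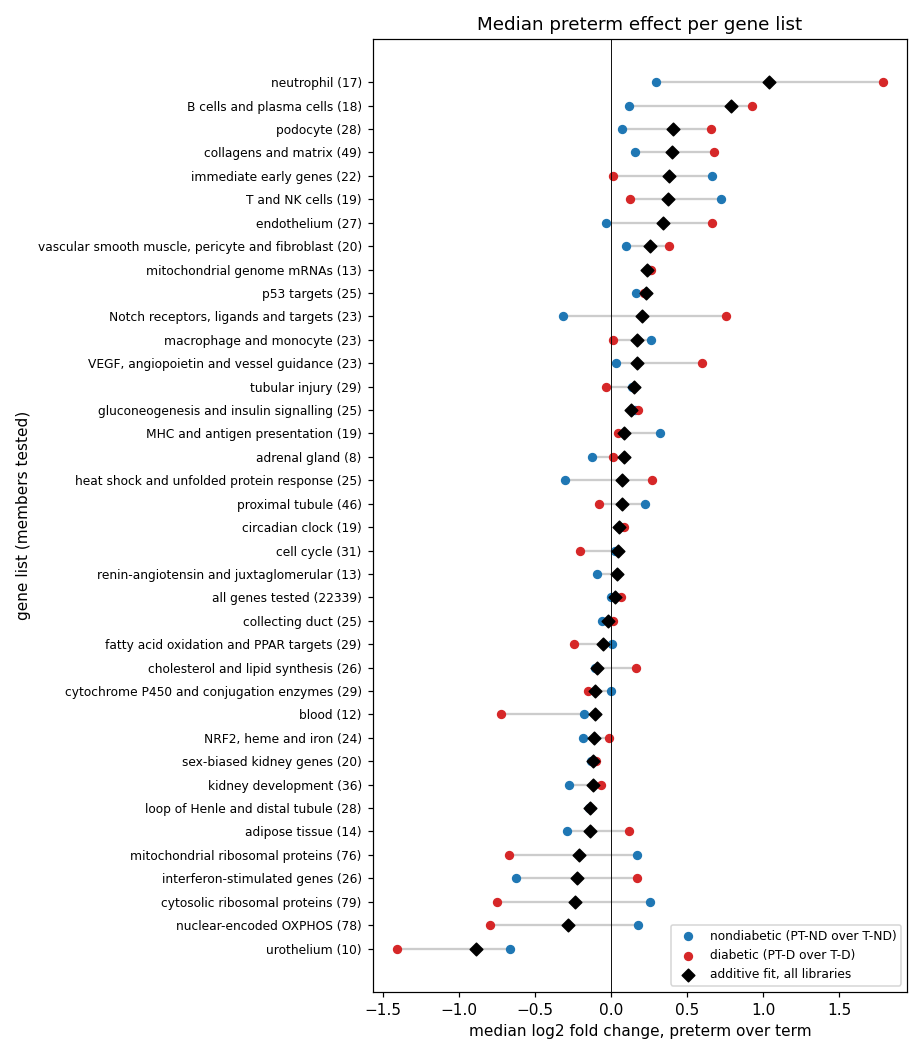
Median log2 fold change (preterm over term) of each gene list in the additive fit (black diamonds), in nondiabetic (blue) and in diabetic mice (red), with the number of members tested in parentheses. Urothelium (-0.89) and neutrophil (1.04) genes lie farthest from 0, and the respiratory chain and ribosomal protein lists have medians above 0 in nondiabetic and below 0 in diabetic mice.

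**Figure D4:**
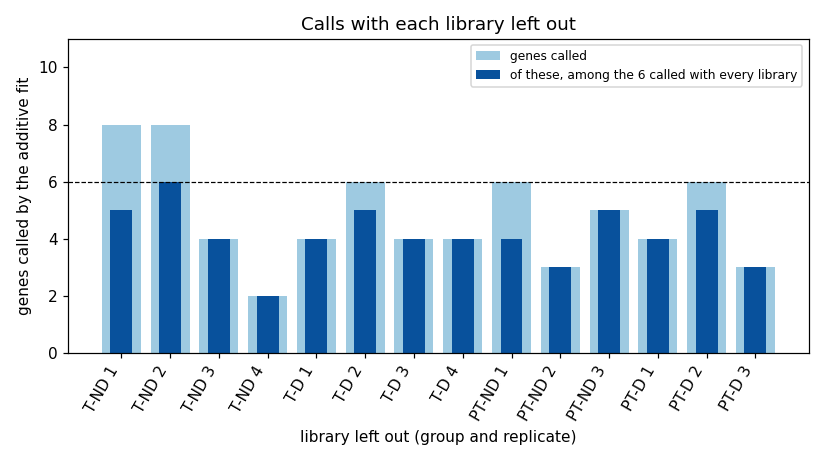
Number of genes called by the additive edgeR fit with each of the 14 libraries left out (light bars), and how many of them were among the 6 genes called with all libraries (dark bars, dashed line at 6). The counts run from 2, without T-ND replicate 4, to 8, without T-ND replicate 1 or 2.

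The additive fit was repeated with each library removed. The number of calls was 2 without T-ND replicate 4 and 3 without PT-ND replicate 2 or PT-D replicate 3, and 4 to 8 otherwise. Snph and BC018473 were called in all 14 of these fits, H2-Ea in 12, Osgin1 in 11, Islr2 in 6 and Col6a6 in 1.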

How the data were processed

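Poly(A) RNA of whole kidneys was sequenced from unstranded libraries, 1 per mouse. Per the labels and the study's methods, the authors trimmed reads, aligned them to GRCm39 with STAR and deposited raw counts per gene for each sample. The unstranded column was used and summary rows were dropped. Depth was 16697246 to 28673176 counts per library. It limits precision for low genes, and limits set by 0 counts cover counting error only. Of 56980 gene identifiers, 56236 were matched to GENCODE M39 for symbols and positions.

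Genes with a total count above 10 were fitted with edgeR 4.0.16 (R 4.3.3, TMM factors, quasi-likelihood test) on diabetic status plus birth. A model of the 4 groups gave the effects within strata and their difference. Normalized counts are counts over effective library size times its mean. Every adjusted p without another tool's name is from edgeR. DESeq2 1.42.0, other scaling factors, other filters, covariates (library suffix, RNA integrity number from the study's sample table) and removal of single libraries were tried as alternatives, and the edgeR script was tested on simulated data. Omitting both T-ND replicates 1 and 2 was chosen after seeing the data. Per the study's methods T-ND mice were littermates of treated mice, and the labels do not give litters, so litter could not be modelled, mice were treated as independent and p-values measure the spread between these samples.

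The genes to be named were called genes of known symbol that averaged 50 or more normalized counts and whose birth groups did not overlap (at most 12 per direction, and 3 for predicted genes), the 2 members of each list with the smallest adjusted p and its defining members, and genes the study named. Other genes were chosen after their values were seen. Members and lists were chosen with earlier results of these data known. The labels' replicate numbers were not taken as pairs.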

Additional observations from a re-analysis of the deposited data

Results flagged for a closer look

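In T-ND, 1 library was far from the other 3 for Snph (replicate 2, 2.74 normalized counts), H2-Ea (replicate 1, 26.1), Gm56730 (replicate 2, 1449), H2-Q7 (replicate 3, 0) and Flt4 (replicate 3, 340). In T-D, the same held for BC018473 (replicate 2, 2.44), Hspa1b (replicate 3, 282), H2-Aa (replicate 4, 6846), Rpl26 (replicate 4, 7289), Tie1 (replicate 4, 246) and Cx3cr1 (replicate 2, 10.97). The gap was judged by Dixon's critical value for 4 samples. Chance flags about 1 in 20 groups, and 11 of 132 gene and group pairs were so marked. The total count of T-D replicate 3, 28673176, was also far from the other T-D libraries.

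The preterm effect differed between strata by the interaction test for 7 of the genes named. The log2 difference (diabetic minus nondiabetic) was 3.70 for Mmp9, 4.77 for Cx3cr1, 1.94 for Flt4, -1.23 for Ndufa13, -2.31 for Socs1 and -1.70 for Bcl2a1d. For BC018473 the fitted difference was -15.0, a value that depends on the prior count because whole groups were at 0.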

How the results depend on the processing

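With all libraries, 6 genes were called for the shared effect (5 higher, 1 lower), 22 in nondiabetic mice, 396 in diabetic mice and 993 for the difference. DESeq2 called 45 (28 higher, 17 lower), 147, 745 and 1648. With no filter on low counts the shared effect had 20 calls (10 higher, 10 lower) and nondiabetic mice 96. With the RNA integrity number as a covariate there were 0 lower calls, 55 calls in nondiabetic and 677 in diabetic mice. Without T-ND replicates 1 and 2 there were 21 calls (16 higher, 5 lower), 6 in nondiabetic mice and 643 for the difference, Hmox1 among the 21 by construction. The 4-group model averaged over strata called 4 lower genes. Diabetic mice had 1323 calls by adjusted p alone and 43 when PT-D and T-D were fitted alone. The causes were not tested. Leaving out each library in turn gave 2 to 8 calls (2 to 6 higher, 0 to 2 lower), 4 to 46 in nondiabetic mice, 24 to 582 in diabetic mice and 76 to 1241 for the difference. In nondiabetic mice the lowest was without T-ND replicate 4 or PT-ND replicate 2 and the highest without T-ND replicate 3.

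With the replicate block, edgeR called 0 genes (0 higher, 0 lower, 886 at an unadjusted p under 0.05), 2 in nondiabetic and 33 in diabetic mice and 563 for the difference, and Snph had an adjusted p of 0.0574. The numbers did not pair the samples: deviations of same-numbered libraries correlated at -0.285 to 0.299 across 19 pairs.

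Of 66 genes followed, 61 kept their sign under every alternative run. Ren1 turned to -0.0694 under the replicate block and -0.00687 without T-ND replicates 1 and 2, and ranged from -0.139 to 0.17 with a library left out. H2-Aa ranged from -0.207 to 0.442 and H2-Ab1 from -0.214 to 0.424, and without T-ND replicates 1 and 2 H2-Ab1 was -0.0243, Nqo1 0.128 and Gsta1 1.1.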
